A study of Mus musculus with 8 samples.

Results

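The EGR and NR4A immediate-early factors described here were 9 of the 26586 genes listed, namely Egr1, Egr2, Egr3, Egr4, Nr4a1, Nr4a2, Nr4a3, Ier2 and Srf. They were chosen by symbol, with their measured levels in mito-supplemented against control libraries already known, so that their values in this comparison are a description. The tests across all genes took in those members that passed the expression filter, and their calls support nothing about the members. RNA-Seq was performed on primordial follicles picked from enzymatically digested ovaries of C57Bl/6 x CBA mice on postnatal day 3. The mito-supplemented group, whose samples are called mito samples hereafter, held 4 samples from the third generation of offspring. This generation descended from founder females made by injecting a sperm into an oocyte together with mitochondria isolated from egg precursor cells of the same strain. The control group held 4 samples of the same strain, stage and tissue without this supplementation in their descent, and no sample analysed here is labelled as descending from sperm injection alone, so that the supplementation and the injection cannot be told apart. Samples were put into groups by the titles in their labels, which read control or treated. The colour key of the study's own expression heat map appears to name the groups the other way round from these titles, and no source used here settles which is right. If the titles were exchanged, the direction of every difference between the groups given here would be reversed. The labels call the samples biological replicates but say no more of the animals, so that the spread given is that between these samples.

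The counts assigned to genes were 17658559, 13917412, 18219362 and 10370045 in control replicates 1 to 4. They were 19760763, 13370911, 16116434 and 13276462 in mito replicates 1 to 4. The mean total did not separate the groups (difference 589798 counts, exact permutation test, two-sided, p = 0.80), and the difference was -967302 without control replicate 4 and -786742 without mito replicate 1. Control replicate 4 stood apart in its content. The genes listed as Rnr1 and Rnr2 took 74.0% of its counts, while their share ranged from 14.9% to 44.3% in the other 7 libraries, and 2559876 of its counts lay outside the 4 rRNA genes listed. Levels are given as CPM, which are counts scaled to a common library size after TMM normalization, and levels of different genes are compared as CPM per kilobase of annotated exon (RPKM). With scaling by library size only, the all-gene median of the log2 fold changes moved from -0.10 to 0.17.

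The label of primordial follicles was checked against markers. Each of 12 oocyte markers had a count in at least 1 library. Their summed level was 2342, 171, 128 and 462 CPM in control replicates 1 to 4 and 273, 152, 516 and 92.1 CPM in mito replicates 1 to 4. Control replicate 1 therefore held the highest oocyte marker level. Each of 10 granulosa markers also had a count in at least 1 library, and 9 of them passed the expression filter. Their sums were 228, 151, 231 and 666 CPM in the controls and 361, 915, 657 and 985 CPM in the mito libraries. Oocytes and granulosa cells are the cells of a follicle, but markers of stroma, endothelium, blood and surface epithelium were present too, and their levels are given after the members. The stroma sum lay above the oocyte sum in every library but control replicate 1. In bulk RNA, fewer cells of a type and less RNA per cell cannot be told apart.

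Immediate-early genes are transcribed within minutes of a stimulus without the need for new protein. Growth factors and hormones reach them through the MAP kinases, which act on the serum response factor SRF and its ternary complex partners, and through cyclic AMP, which acts on CREB. The EGR proteins are zinc finger factors, and the NR4A proteins are orphan nuclear receptors whose amounts, more than any ligand, set their activity. In the ovary both families are best known for their induction by gonadotropins in granulosa and theca cells of growing follicles.

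Egr1 was the most abundant member per length in all 8 libraries. It had 126, 55.6, 141 and 117 CPM in control replicates 1 to 4, and 206, 475, 753 and 1148 CPM in mito replicates 1 to 4. Every mito library lay above every control library, and mito replicate 1 was the nearest to the controls. The means were 109.9 ± 37.5 CPM in controls and 645 ± 402 CPM in mito samples (SD, n = 4 each), and the log2 fold change was 2.55 with a standard error of 0.54. By RPKM, Egr1 ranked between 623 and 2120 of 12326 genes in the control libraries and between 17 and 341 in the mito libraries. In the 2 mito libraries where it was highest, it stood at ranks 20 and 17. Egr1 lies on chromosome 18 of GRCm38 from 34859823 to 34864984 on the plus strand, and its exons overlap no other annotated exon.

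**Figure D1:**
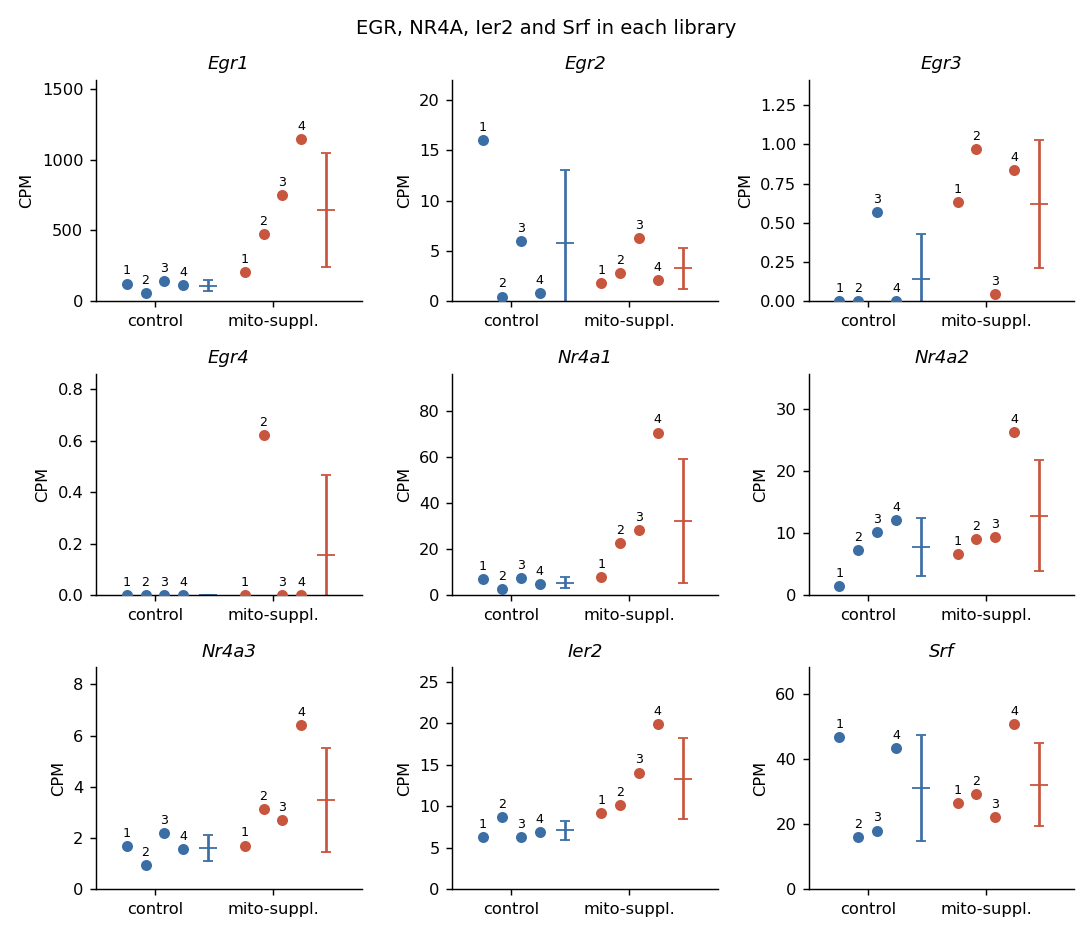
Levels of the 9 members in CPM (vertical axis, from 0) in each library, with replicate numbers beside the points. The bar beside each group is the mean ± SD of 4 libraries, and bars that would reach below 0 end at the axis. Egr1, Nr4a1 and Ier2 have every mito library above every control library, while Egr2, Nr4a2, Nr4a3 and Srf overlap.

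Of the 9 members, 7 passed the expression filter, and Egr3 and Egr4 did not. In the quasi-likelihood test of edgeR, with p adjusted by the Benjamini-Hochberg method, 0 of the 13873 genes tested were called at an adjusted p under 0.05 and a 2-fold difference (0.00%), so that 0 of the 7 members were called. At an unadjusted p under 0.05 there were 1069 genes, and DESeq2 called 141 genes. In edgeR's likelihood ratio test, the test that the study's methods name, 58 genes were called, 57 of them higher in mito samples (0.411% of those tested) and 1 lower (0.00721%). Egr1 was among the higher genes as 1 of the 7 members, and 0 members were lower. This count was 331 without control replicate 4, 387 and 13 without mito replicates 1 and 2, 22 without control replicate 2 and 26 without mito replicate 4. Every mito library lay above every control library for 3 of the 7 members, Egr1, Nr4a1 and Ier2, and for 416 of the 13873 genes (3.00%). The reverse order held for 0 members and for 282 genes (2.03%). As the members were selected on this comparison, nothing is read from these shares.

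Egr2, the EGR factor best known from myelinating Schwann cells and hindbrain patterning, had a different pattern from Egr1. It had 391, 6, 104 and 4 counts in control replicates 1 to 4, or 16.0, 0.476, 5.95 and 0.789 CPM. In mito replicates 1 to 4 it had 37, 41, 139 and 30 counts, or 1.80, 2.84, 6.31 and 2.09 CPM. The controls thus held both the highest and the lowest values, and the mito libraries lay between them. The exact Poisson interval was 1.09 to 10.2 for the 4 counts and 2.20 to 13.1 for the 6 counts (95%, counting error only). The direction of the difference was not settled, since the log2 fold change was -0.84 (standard error 1.05) over all libraries, 0.44 without control replicate 1 and 0.33 with the replicate number as a block, and the difference in mean log2 CPM was 0.15. Egr2 lies on chromosome 10 from 67535475 to 67542188 on the plus strand.

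Egr3 and Egr4, close relatives of Egr1 with roles in muscle spindles and in spermatogenesis, were near the detection limit. Egr3 had 0, 0, 10 and 0 counts in control replicates 1 to 4 and 13, 14, 1 and 12 counts in mito replicates 1 to 4. It was thus seen in 1 control library and in all 4 mito libraries, in 1 of them by a single count. Egr4 had 9 counts in mito replicate 2 and 0 in the other 7 libraries. The limit used for a count of 0 was 3 counts, somewhat lower than the upper bound of 3.69 counts of the exact 95% Poisson interval. It is 0.123 CPM in control replicate 1 and 0.592 CPM in control replicate 4, the libraries with the lowest and the highest limit. No fold change is given for either gene. They lie on chromosome 14 from 70077203 to 70082614 (Egr3, plus strand) and on chromosome 6 from 85511121 to 85513589 (Egr4, minus strand).

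Among the 4 EGR genes, Egr1 made up between 94.4% and 99.7% of the summed RPKM in 7 libraries and 85.6% in control replicate 1, where Egr2 made up the remaining 14.4%. The EGR signal of these follicle samples was therefore almost entirely Egr1.

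Nab1 and Nab2 bind the EGR proteins and repress their activity, and Nab2 is itself induced by EGR factors. Nab2 had 6.85, 7.06, 9.09 and 20.3 CPM in control replicates 1 to 4 and 20.96, 38.1, 10.8 and 126 CPM in mito replicates 1 to 4. Mito replicate 3 lay within the control range, so that the groups overlapped. The log2 fold change of Nab2 was 2.19 (standard error 0.75), and it was 1.14 without mito replicate 4. The mean of Nab1 was 43.8 ± 21.1 CPM in controls, against 80.4 ± 24.1 CPM in mito samples (SD, n = 4 each), with overlap, and its log2 fold change was 0.88 (standard error 0.40). With scaling by library size only, the groups did not overlap for either gene, beside 6.62% of all genes tested. Both cofactors thus had log2 fold changes above 0, with a median of 1.53, and 0 of these 2 genes were called in the quasi-likelihood test. The exons of Nab2 overlap those of Stat6 and other genes on the opposite strand, and since no source used here states the strand setting, its counts are uncertain. Counts are likewise uncertain for Elk1, whose exons overlap those of Uxt on the same strand, for Elk4, whose exons overlap those of other genes on both strands, and for Elk3, Mkl1, Mkl2, Rps6ka1, Icam1, Zfp36 and Lhb, whose exons overlap those of genes on the opposite strand. The exons of the 9 members overlap none.

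Nr4a1, also known as Nur77, followed Egr1 closely. It had 6.97, 2.54, 7.38 and 4.93 CPM in control replicates 1 to 4, and 8.01, 22.4, 28.2 and 70.5 CPM in mito replicates 1 to 4. Every mito library lay above the controls, although the gap between mito replicate 1 and control replicate 3 was small, and with scaling by library size only these groups overlapped. Its log2 fold change was 2.56 (standard error 0.67), and it was 1.88 without mito replicate 4, the library with the highest level. Nr4a1 lies on chromosome 15 of GRCm38 from 101254269 to 101274795 on the plus strand.

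Nr4a2, or Nurr1, which is needed for midbrain dopamine neurons, had 1.40, 7.21, 10.2 and 12.0 CPM in control replicates 1 to 4. It had 6.60, 9.07, 9.39 and 26.2 CPM in mito replicates 1 to 4. Of the mito libraries, replicate 4 alone lay above all controls, and control replicate 1 alone lay below all mito libraries. The log2 fold change of 0.74 (standard error 0.71) became 0.15 without mito replicate 4 and 1.05 without control replicate 4. Nr4a3, or Nor1, had 1.68, 0.951, 2.17 and 1.58 CPM in the controls and 1.70, 3.12, 2.68 and 6.40 CPM in the mito libraries, in the same order. Its groups overlapped through mito replicate 1, and its log2 fold change was 1.11 (standard error 0.75), or 0.67 without mito replicate 4. Nr4a2 lies on chromosome 2 from 57106830 to 57124003 on the minus strand, and Nr4a3 on chromosome 4 from 48045153 to 48086447 on the plus strand.

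The make-up of the NR4A family differed between libraries. Nr4a1 made up 76.1%, 27.2%, 42.3% and 30.3% of the summed NR4A RPKM in control replicates 1 to 4. In mito replicates 1 to 4 its share was 54.4%, 69.9%, 74.4% and 72.7%. Nr4a2 was thus the leading NR4A transcript in control replicates 2, 3 and 4, and Nr4a1 in control replicate 1 and in all 4 mito libraries. The summed level was 2.61, 2.66, 4.97 and 4.64 RPKM in the controls and 4.19, 9.15, 10.8 and 27.6 RPKM in the mito libraries. Mito replicate 1 lay within the control range in this sum, and its share of Nr4a1 lay between those of control replicates 3 and 1. Nr4a3 contributed between 3.87% and 10.8% in the 8 libraries.

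**Figure D2:**
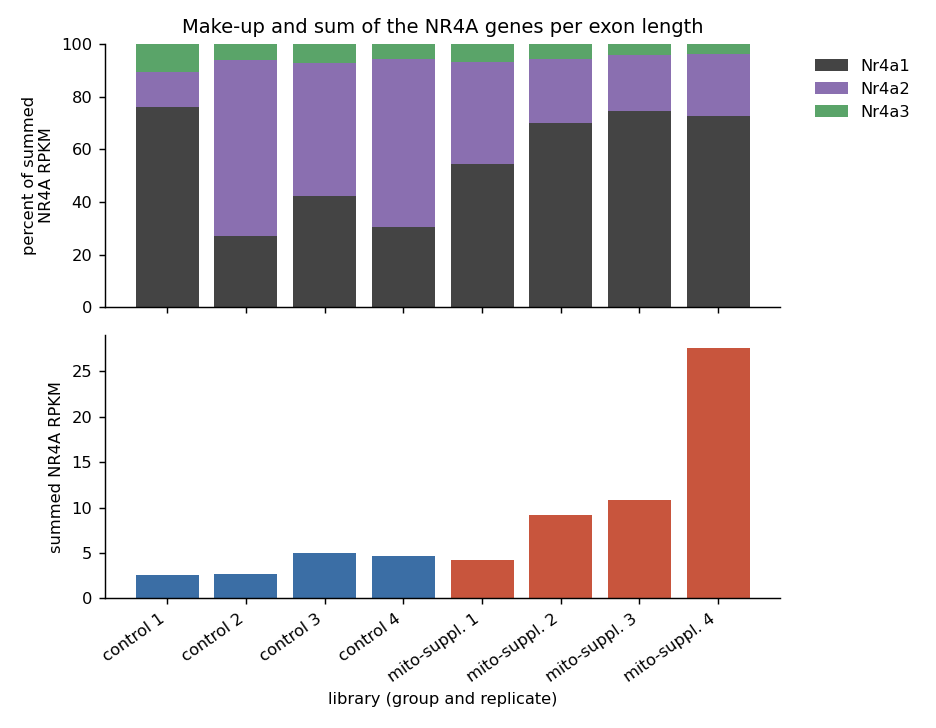
The upper bars give the percent of the summed NR4A RPKM that each gene contributed in each library, and the lower bars give that sum in RPKM (control in blue, mito in red). Nr4a2 leads in control replicates 2, 3 and 4, and Nr4a1 in the other 5 libraries, with the highest sum, 27.6 RPKM, in mito replicate 4.

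Ratios of counts within a library do not depend on the scaling between libraries. For each 100 counts of Egr1 there were 5.55, 4.57, 5.24 and 4.20 counts of Nr4a1 in control replicates 1 to 4. In mito replicates 1 to 4 there were 3.88, 4.73, 3.75 and 6.14. This ratio therefore varied 1.64-fold over the 8 libraries, while the CPM of Egr1 varied 20.7-fold and that of Nr4a1 27.8-fold. The mean ratio was 4.89 ± 0.617 in controls and 4.63 ± 1.10 in mito samples (SD, n = 4 each). Of the other members detected in every library, Nr4a3 varied 4.82-fold relative to Egr1, Ier2 9.06-fold, Nr4a2 11.7-fold, Srf 12.6-fold and Egr2 70.3-fold. Nr4a3 had 1.34 to 1.71 counts for each 100 of Egr1 in the controls and 0.356 to 0.823 in the mito libraries, so that its ratio was steady within the controls but lower in each mito library. The pair of Egr1 and Nr4a1 was singled out after its values were seen.

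**Figure D3:**
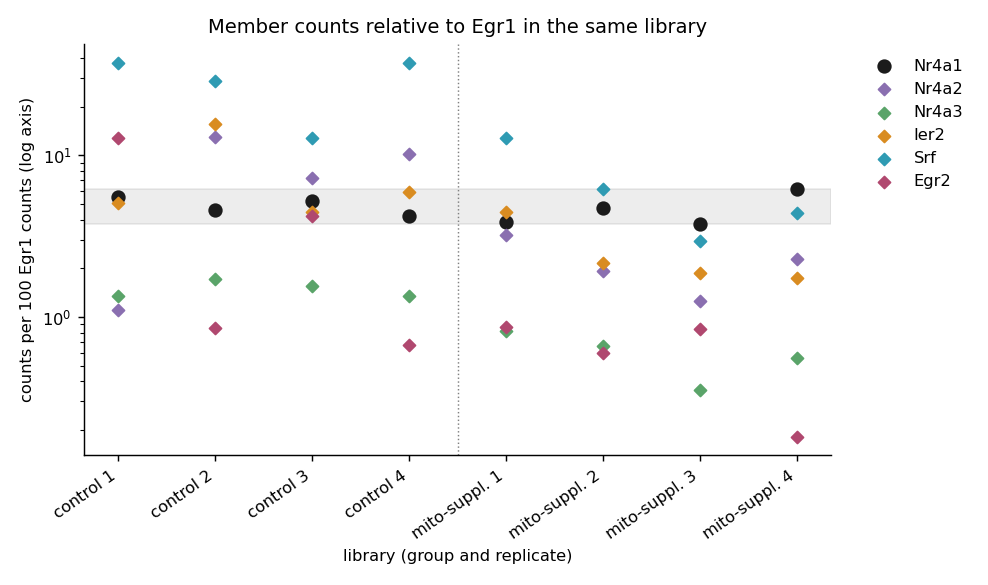
Counts of 6 members for each 100 Egr1 counts in the same library (vertical log axis), by library. The grey band spans the 8 values of Nr4a1, from 3.75 to 6.14, whereas Srf spans 12.8 to 37.4 in the controls and 2.96 to 12.8 in the mito libraries.

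Ier2, a small nuclear immediate-early protein, varied the least of the members within the controls. It had 6.32, 8.72, 6.29 and 6.91 CPM in control replicates 1 to 4, and 9.17, 10.2, 14.1 and 19.9 CPM in mito replicates 1 to 4. All mito libraries lay above all controls, with 8.72 and 9.17 CPM as the nearest values. These rested on 110 counts in control replicate 2 (95% Poisson interval 90.4 to 133) and 189 counts in mito replicate 1 (163 to 218). Scaled to CPM, these intervals overlap, so that the gap lay within counting error. The means were 7.06 ± 1.14 and 13.3 ± 4.86 CPM (SD, n = 4 each), and the log2 fold change was 0.92 (standard error 0.46). Ier2 lies on chromosome 8 from 84661331 to 84662852 on the minus strand. At 1522 exon bases it is the shortest member, and per length it stood at 4.64 RPKM in controls, above the 1.56 RPKM of Nr4a1.

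Srf, the factor that binds the CArG box of many immediate-early and muscle promoters, did not share the pattern of Egr1. It had 46.9, 16.0, 18.0 and 43.4 CPM in control replicates 1 to 4, and 26.4, 29.3, 22.3 and 50.8 CPM in mito replicates 1 to 4. The high values were those of control replicates 1 and 4 and mito replicate 4, and the groups overlapped throughout. The log2 fold change was 0.05 (standard error 0.47), and it ranged from -0.22 without mito replicate 4 to 0.34 without control replicate 1. Srf lies on chromosome 17 from 46548329 to 46556175 on the minus strand.

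Levels among the members were ordered by mean RPKM. In controls the order was Egr1 (24.5 ± 8.36), Srf (10.8 ± 5.65), Ier2 (4.64 ± 0.752), Nr4a2 (1.90 ± 1.15), Egr2 (1.71 ± 2.14), Nr4a1 (1.56 ± 0.633), Nr4a3 (0.267 ± 0.0839) and Egr3 (0.0325 ± 0.0649), each with its SD over 4 libraries, and Egr4 was at 0. Egr1 and Srf differed by more than the SD of either, and Egr1 lay above Srf in each control library, while Nr4a2, Egr2 and Nr4a1 lay within their SDs of each other. In mito samples the order was Egr1 (143.9 ± 89.8), Srf (11.1 ± 4.40), Nr4a1 (9.20 ± 7.65), Ier2 (8.75 ± 3.19), Nr4a2 (3.16 ± 2.22), Egr2 (0.958 ± 0.612), Nr4a3 (0.580 ± 0.340), Egr3 (0.141 ± 0.0925) and Egr4 (0.0726 ± 0.145). Srf, Nr4a1 and Ier2 lay within their SDs of each other there. Nr4a2 lay above Egr2 in every mito library. Nr4a1 stood below Srf and Ier2 in every control library, and above Ier2 in mito replicate 4 alone.

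Promoter windows of the members, from 250 bases before to 50 bases after an annotated start, were read from RefSeq (GRCm38.p6), and 6 of the 9 members had at least 1 window. Egr1, Egr3 and Ier2 had no window in the set used here, which does not show that RefSeq lacks their starts. The windows of Srf, of Egr2 and of the 3 NR4A genes are shown because these members differ in the motifs they hold and in their patterns between libraries. Capitals mark each CArG box (the SRF motif) and each TGACG, the short form of the cyclic AMP response element, on either strand (CGTCA on the other strand). The Srf window is chr17:46556113-46556412 on the minus strand and the Egr2 window chr10:67537619-67537918 on the plus strand, the latter being 1 of 5 RefSeq windows of Egr2. The Nr4a1 window is chr15:101266596-101266895 on the plus strand, the Nr4a2 window chr2:57123954-57124253 on the minus strand and the Nr4a3 window chr4:48045055-48045354 on the plus strand.
Srf: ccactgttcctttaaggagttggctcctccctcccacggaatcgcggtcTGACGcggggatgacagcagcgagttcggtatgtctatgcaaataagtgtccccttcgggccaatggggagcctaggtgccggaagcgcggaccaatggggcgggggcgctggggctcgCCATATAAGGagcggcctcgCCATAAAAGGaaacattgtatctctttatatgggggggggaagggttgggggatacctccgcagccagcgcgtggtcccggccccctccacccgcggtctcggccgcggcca
Egr2: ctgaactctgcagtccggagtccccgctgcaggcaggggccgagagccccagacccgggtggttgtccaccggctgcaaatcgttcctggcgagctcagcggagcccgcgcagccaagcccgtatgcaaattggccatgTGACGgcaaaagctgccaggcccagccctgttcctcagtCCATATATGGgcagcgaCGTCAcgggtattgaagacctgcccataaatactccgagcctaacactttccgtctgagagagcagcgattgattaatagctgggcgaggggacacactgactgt
Nr4a1: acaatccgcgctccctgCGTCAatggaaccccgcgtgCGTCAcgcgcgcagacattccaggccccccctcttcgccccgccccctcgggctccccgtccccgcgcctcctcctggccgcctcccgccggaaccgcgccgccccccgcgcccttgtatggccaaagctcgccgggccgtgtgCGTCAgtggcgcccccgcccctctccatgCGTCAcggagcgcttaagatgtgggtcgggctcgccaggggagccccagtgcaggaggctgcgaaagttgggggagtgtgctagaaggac
Nr4a2: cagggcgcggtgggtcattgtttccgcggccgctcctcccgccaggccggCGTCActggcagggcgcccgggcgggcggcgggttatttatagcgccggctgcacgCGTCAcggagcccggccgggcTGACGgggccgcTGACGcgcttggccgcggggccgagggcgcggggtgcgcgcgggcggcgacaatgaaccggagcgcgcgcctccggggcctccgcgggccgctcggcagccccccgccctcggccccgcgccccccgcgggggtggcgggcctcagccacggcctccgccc
Nr4a3: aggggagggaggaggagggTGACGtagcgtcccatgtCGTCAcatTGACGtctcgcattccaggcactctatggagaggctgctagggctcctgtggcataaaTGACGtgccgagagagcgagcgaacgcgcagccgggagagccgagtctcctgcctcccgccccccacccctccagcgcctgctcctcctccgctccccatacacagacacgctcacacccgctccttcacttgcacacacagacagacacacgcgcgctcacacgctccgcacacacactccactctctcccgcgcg

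The Srf window held 2 CArG boxes and 1 TGACG, and the Egr2 window 1 CArG box and 2 copies of TGACG. The CArG boxes of Srf began 82 and 62 bases before the start, and that of this Egr2 window 72 bases before it. The windows of Nr4a1, Nr4a2 and Nr4a3 held 4 copies of TGACG each and 0 CArG boxes, and that of Egr4 2 copies of TGACG and 0 CArG boxes. Over all 32851 RefSeq promoter windows, 1.63% held at least 1 CArG box and 20.8% at least 1 TGACG. Of 25 other immediate-early genes with a window, 1 held a CArG box and 14 held TGACG. Among all genes with a window these shares were 1.81% and 23.0%. How many copies the windows of other genes held was not counted. The full palindrome TGACGTCA, which contains TGACG, was in 1.79% of all windows and in 0 of the member windows. The EGR motif GCGTGGGCG was in 0.612% of all windows and the NR4A motif AAAGGTCA in 1.51%, and 0 member windows held either. The GC box GGGCGG was in 35.7% of all windows and in 21 of the 25 other immediate-early genes. It occurred 5 times in the Nr4a2 window, 3 times in that of Nr4a1 and once each in those of Nr4a3 and Srf. It was absent from the Egr2 window shown, but the Egr2 window chr10:67535249-67535548 held 4 GC boxes with 0 CArG boxes and 0 copies of TGACG, and the window chr10:67537316-67537615 held 1 GC box and 1 CArG box. TATAAA, in 13.6% of all windows, was found in those of Nr4a2 and Srf, on the opposite strand in each. The matches are a description of the letters in these windows.

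The SRF partners were read from a list of 6 genes. Elk1, Elk3 and Elk4 are ternary complex factors that carry the MAP kinase signal to SRF, Mkl1 and Mkl2 (the MRTF proteins) carry the signal of actin, and Myocd is the cofactor of muscle. Of these 6 genes, all tested, 0 were called in edgeR's quasi-likelihood test, 2 had a log2 fold change above 0 and 4 below, with a median of -0.14 beside -0.10 for all genes tested. The median was 0.24 with scaling by library size only, 0.08 with the replicate block, 0.02 without control replicate 4 and 0.06 without mito replicate 1. Elk1 was at -0.63 (standard error 0.64), Elk4 at -0.17 (0.39), Elk3 at -0.14 (0.53), Mkl2 at -0.13 (0.55), Myocd at 0.21 (1.01) and Mkl1 at 0.38 (0.62), each as a log2 fold change with its standard error. With a library left out, that of Elk1 lay between -1.26 (mito replicate 2) and -0.30 (mito replicate 4). The signs of Elk3 and Elk4 changed with scaling by library size only, to 0.37 and 0.12. Mkl1 and Mkl2 were highest in control replicate 1, at 79.1 and 288 CPM, the library in which Egr2 and Srf were high as well. Without that library the log2 fold changes of Mkl1 and Mkl2 were 1.36 and 0.59. Myocd had 73.8 CPM in control replicate 4 and 64.5 CPM in mito replicate 4, against 2.05 to 17.7 CPM in the other 6 libraries. Its log2 fold change was 2.11 without the former library and -0.69 without the latter.

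Targets of the MRTF and SRF pair, mostly genes of the actin cytoskeleton, had log2 fold changes above 0 in 18 of 21 genes tested, with a median of 0.67. Over all genes tested, 44.9% had a log2 fold change above 0. The quasi-likelihood test called 0 of the 21. The groups did not overlap for Flna, which had 79.9, 158, 177 and 272 CPM in control replicates 1 to 4 and 344, 502, 445 and 534 CPM in mito replicates 1 to 4. It was 1 of the 21 genes, beside 3.00% of all genes tested, and with scaling by library size only there were 5 such genes, Flna among them, beside 6.62%. The largest differences were those of Lmod1 (2.45, standard error 0.92), Cnn1 (1.97, 1.42), Tpm2 (1.55, 0.87) and Cald1 (1.44, 0.63). Cnn1 had 32.0 CPM in mito replicate 4 and between 0.194 and 6.81 CPM in the other 7 libraries, and its log2 fold change was -0.17 without that library and 3.45 without control replicate 1. With control replicate 4 left out, the values were 3.19 for Lmod1, 2.55 for Tpm2 and 2.41 for Cald1, and without mito replicate 4 that of Tpm2 was 0.68. Cald1 had 65.9, 58.8, 91.8 and 343 CPM in control replicates 1 to 4 and 158, 490, 312 and 558 CPM in mito replicates 1 to 4. Control replicate 4 thus sat among the mito libraries for Cald1, and the median of the list was 1.41 without it and 0.25 without mito replicate 4. The list shares 7 of its 21 genes with the 8 smooth muscle markers, whose summed level was 291 CPM in control replicate 4 and 384 CPM in mito replicate 4, and 32.6 to 109.3 CPM in the other libraries. The part of these cells in the result was not tested.

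The kinases and CREB factors upstream of the members had log2 fold changes on both sides of 0. Of 19 genes tested, 8 had a log2 fold change above 0 and 11 below, 0 were called in the quasi-likelihood test, and the median was -0.20, or 0.05 with scaling by library size only. The largest differences were those of Crtc1 (1.00, standard error 0.43), a CREB coactivator, the kinase Rps6ka2 (0.95, 0.51), the kinase Rps6ka1 (-0.85, 0.68) and the coactivator Crtc2 (0.80, 0.40). That of Rps6ka1 was -0.28 without control replicate 2 and -1.42 without mito replicate 1. Crtc2 had 14.1, 8.64, 13.2 and 7.70 CPM in control replicates 1 to 4 and 17.6, 21.3, 18.7 and 18.4 CPM in mito replicates 1 to 4. It was the 1 gene of the 19 whose groups did not overlap, beside 3.00% of all genes tested. With scaling by library size only its groups overlapped, and those of 2 other genes of the list did not, beside 6.62% of all genes tested. The activity of these kinases lies in their phosphorylation, which RNA counts do not measure.

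NR4A receptors can pair with the retinoid X receptors. The mean of Rxra was 25.8 ± 16.9 CPM in controls, against 38.7 ± 21.2 CPM in mito samples, and Rxrb 7.93 ± 4.80 and 5.48 ± 2.98 CPM (SD, n = 4 each), while Rxrg had 0 counts in 7 libraries and 1 count in mito replicate 3. Their log2 fold changes were 0.59 for Rxra and -0.53 for Rxrb, with a median of 0.03, and 0 of these 2 genes tested were called in the quasi-likelihood test. Of 9 NR4A targets known from steroid-making, dopaminergic and muscle cells, 4 passed the filter, 1 with a log2 fold change above 0 and 3 below, with a median of -1.27, and the quasi-likelihood test called 0. Leaving out control replicate 1 gave a median of -0.26 and leaving out control replicate 3 one of -0.72, while the replicate number as a block gave -0.17. Star, which moves cholesterol into mitochondria for steroid synthesis, had 16.4, 21.1, 16.2 and 6.12 CPM in control replicates 1 to 4 and 30.8, 36.1, 21.1 and 58.8 CPM in mito replicates 1 to 4. Its groups met at control replicate 2 and mito replicate 3 without overlap at full precision, with a log2 fold change of 1.29 (standard error 0.48). It was 1 of the 4 genes tested, beside 3.00% of all genes tested, and its groups did not overlap with scaling by library size only either. Akr1c18, which inactivates progesterone, was at -1.94 (standard error 1.43), Th, the enzyme that begins catecholamine synthesis, at -1.52 (1.08) and the glycolytic enzyme Eno3 at -1.03 (0.74). These 3 values depended on the libraries used. With a library left out, Akr1c18 lay between -2.68 (mito replicate 4) and -0.32 (control replicate 3), Th between -1.88 (control replicate 3) and 0.59 (control replicate 1), and Eno3 between -1.52 (mito replicate 2) and -0.37 (control replicate 2). Akr1c18 was at 0.34 with the replicate number as a block.

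EGR targets from other tissues had log2 fold changes above 0 in 10 of 12 genes tested, beside 44.9% of all genes tested. The median of the 12 was 0.71, and 0 of them were called in the quasi-likelihood test. After Nab2, the largest differences were those of Arc (1.44, standard error 1.52), Icam1 (1.23, 1.60) and F3 (0.96, 0.82). Arc, which is a neuronal immediate-early gene, had 0 counts in control replicates 1, 2 and 4 and 1.77 CPM in control replicate 3, beside 0.728 to 1.81 CPM in the mito libraries, so that its fitted value rests on few counts. These sizes depended on single libraries. Without control replicate 3, Arc had 0 counts in every control left and a fitted value of 7.38. Over all libraries with the replicate number as a block, the value of Arc was 4.24. Icam1 was at 2.5 without control replicate 2, and F3 was at 1.90 without control replicate 4. The groups overlapped for each of the 12 genes, while the mito libraries all lay above the controls for 3.00% of all genes tested. With scaling by library size only, the groups did not overlap for 2 of the 12, Nab2 among them, beside 6.62% of all genes tested. Lhb, the best known EGR target of the pituitary, did not pass the filter.

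The median log2 fold change of 28 other immediate-early genes tested was 1.45, beside 0.92 for the 7 members tested. The value was above 0 for 26 of the 28, beside 44.9% of all genes tested. The quasi-likelihood test called 0 of the 28, and the likelihood ratio test called 5. These were Fos, Fosb, Atf3, Zfp36 and Ptgs2, beside 0.411% of all genes tested called higher. The groups did not overlap for 7 of the 28 genes (Fos, Fosl2, Atf3, Dusp6, Zfp36, Klf2 and Ptgs2), all with the mito libraries above, beside 3.00% of all genes tested. With scaling by library size only there were 9, without Fosl2 and Klf2, beside 6.62%. The list was chosen with earlier results of these data known, and nothing is read from these shares. The largest differences were those of Ptgs2 (4.44, standard error 1.20), Atf3 (4.14, 0.79), Fosb (3.19, 0.79) and Fos (3.15, 0.64). Without mito replicate 4, Fosb was at 2.16 and Ptgs2 at 3.80, without control replicate 3, Atf3 was at 4.85 and Fos at 3.90, and without control replicate 2, Ptgs2 was at 5.53. Fosb had 6.61, 5.47, 10.1 and 20.9 CPM in control replicates 1 to 4 and 20.7, 53.2, 66.5 and 252 CPM in mito replicates 1 to 4, so that control replicate 4 lay just above mito replicate 1. Ptgs2, the prostaglandin synthase of ovulation, had 0.0410, 1.19, 0.515 and 0 CPM in the controls and 7.47, 2.42, 8.94 and 21.1 CPM in the mito libraries. As with Egr1 and Nr4a1, the highest level of Atf3, Fosb, Fos and Ptgs2 was that of mito replicate 4.

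**Figure D4:**
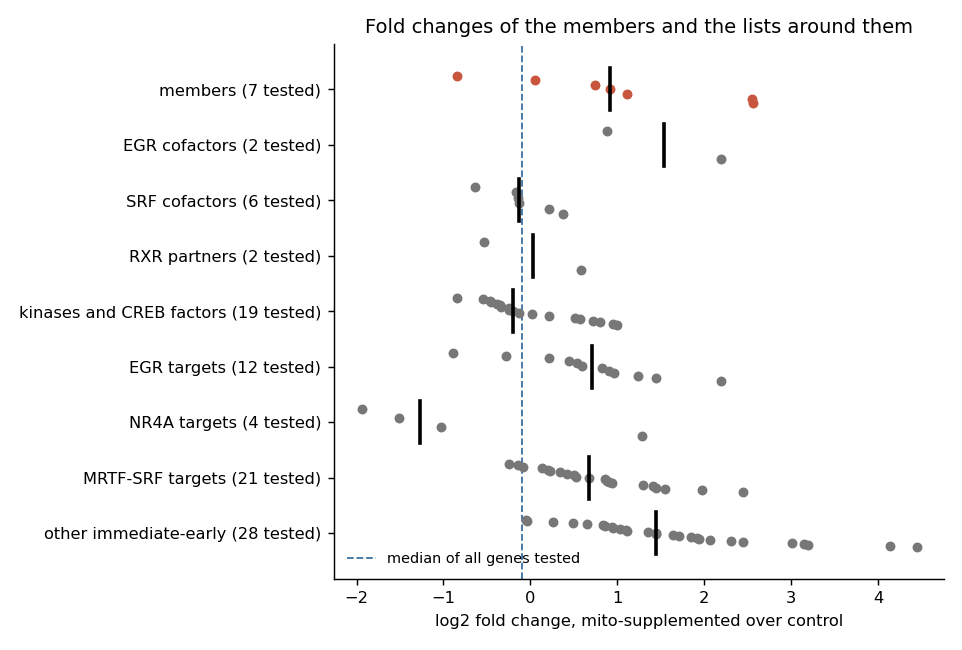
Log2 fold changes (horizontal axis, mito over control) of the genes tested in each list, 1 point a gene, with the black bar at the list median. The dashed line is the median of all 13873 genes tested, -0.10. The other immediate-early genes have a median of 1.45 and the SRF cofactors one of -0.14.

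The likeness of patterns was measured as the root mean square (RMS) difference in log2 CPM after each gene was centred on its mean. Among the 21 pairs of members tested, Egr1 and Nr4a1 were the closest, with an RMS difference of 0.233 over the 8 libraries and of 0.224 when each gene was centred within each group. Egr2 and Nr4a2 were the farthest, at 2.22 and 2.19. Within groups, Nr4a3 was next closest to Egr1, at 0.344, so that Egr1, Nr4a1 and Nr4a3 were high and low in nearly the same libraries of a group. Measured against the mean of the 7 members tested, Nr4a3 was the closest member, at 0.179 over the 8 libraries and 0.167 within groups. With the members themselves left out, the genes closest over the 8 libraries were Slc29a3 (0.158), Nxn (0.166), Zfp606 (0.224), Invs (0.231) and Irgq (0.239), beside a median of 1.14 over all genes tested. Centred within each group they were Slc29a3 (0.123), Nxn (0.166), Vwa5a (0.188), Zcchc3 (0.200) and Invs (0.200), beside a median of 0.932. Slc29a3, a nucleoside transporter of internal membranes, had 15.3, 9.75, 21.8 and 16.8 CPM in control replicates 1 to 4 and 15.8, 26.4, 31.5 and 49.0 CPM in mito replicates 1 to 4. Its highest and lowest libraries were those of Nr4a3. These names depended on the libraries used. Over all libraries but control replicate 1, control replicate 4 or mito replicate 4, 2 of the 5 remained, and within groups between 1 and 3 of the 5 remained with any library left out.

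Markers of the cell types that the samples could hold were summed and compared by exact permutation tests, two-sided, with Benjamini-Hochberg adjustment over 9 lists. No list passed 0.05 after adjustment. The smallest unadjusted p that 4 libraries against 4 allow is 0.0286. With adjustment over 9 lists, a single list at that value could not pass 0.05 on its own, so that nothing is read from this. The granulosa sum was higher in mito samples by 1.33 on the log2 scale (exact permutation test, p = 0.0857, adjusted p = 0.342), with Wt1 as its most abundant gene and 8 of the 9 genes tested above 0 in log2 fold change. The surface epithelium sum was 104, 43.3, 33.7 and 339 CPM in control replicates 1 to 4 and 273, 737, 301 and 628 CPM in mito replicates 1 to 4, led by Upk3b, with all 10 of its genes above 0 in log2 fold change (log2 difference 2.36, exact permutation test, p = 0.0857, adjusted p = 0.342). The endothelial sum was 27.2, 28.9, 46.3 and 225 CPM in the controls and 97.7, 228, 187.5 and 204 CPM in the mito libraries, led by Kdr (log2 difference 1.65, exact permutation test, p = 0.114, adjusted p = 0.342). In each of these 3 lists control replicate 4 lay among the mito libraries. Without it, the log2 difference was 3.02 for surface epithelium and 2.33 for endothelial markers. The stroma sum, led by Col3a1, was 425, 505, 780 and 2606 CPM in the controls and 1044, 1070, 2876 and 2459 CPM in the mito libraries (log2 difference 1.04, exact permutation test, p = 0.171, adjusted p = 0.385). The part of these cells in the levels of the members was not tested.

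The groups overlapped in the remaining lists as well. The oocyte sum, led by Kit, had a log2 difference of -0.89, with 0 of its 12 genes above 0 in log2 fold change (exact permutation test, p = 0.486, adjusted p = 0.625). Without control replicate 1, which held the highest sum, the log2 difference was -0.04, and without control replicate 3 it was -1.43. The theca sum, led by Hsd3b1, had a log2 difference of -0.50 (exact permutation test, p = 0.457, adjusted p = 0.625), with 3 of the 4 genes tested above 0 in log2 fold change. The smooth muscle sum, led by Myh11, had a log2 difference of 0.84, with 7 of the 8 genes tested above 0 in log2 fold change (exact permutation test, p = 0.40, adjusted p = 0.625). The log2 difference of this sum was 1.54 without control replicate 4 and 0.29 without mito replicate 4, the libraries with the highest sums of their groups. The theca sum was 122, 47.0, 122 and 235 CPM in the controls and 54.3, 57.3, 144 and 92.1 CPM in the mito libraries. Red cell markers, of which 6 of 8 were in the table, were led by Slc4a1 and summed to 3618 and 2404 CPM in control replicates 2 and 3 and 4535 CPM in mito replicate 1, and to between 13.4 and 73.1 CPM in the other 5 libraries (log2 difference -1.29, exact permutation test, p = 0.771, adjusted p = 0.800). This difference was -0.04 without control replicate 2 and -3.08 without mito replicate 1. Immune markers, led by Lyz2, were highest in the same 3 libraries, at 136.5, 119.8 and 746 CPM against 8.55 to 21.7 CPM elsewhere (log2 difference -0.34, exact permutation test, p = 0.800, adjusted p = 0.800), and C1qb had 0 counts in all libraries. The sign of the immune difference was not settled by these values, as the mean sum was 72.1 ± 65.2 CPM in controls and 196 ± 367 CPM in mito samples (SD, n = 4 each), and 5 of the 5 genes tested had a log2 fold change above 0. With a library left out, the log2 difference lay between -1.80 (mito replicate 1, the library with the highest sum) and 0.30 (mito replicate 4), and was above 0 in 4 of 8 cases. Mito replicate 1, the library of its group with the lowest Egr1, Nr4a1 and Ier2, was thus also the one with the most blood cell transcripts. The controls rich in these transcripts did not share this order. Control replicate 2 held the lowest Egr1 and Nr4a1 of its group and control replicate 3 the highest, and the reverse held for Ier2. The part of blood cells was not tested.

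**Figure D5:**
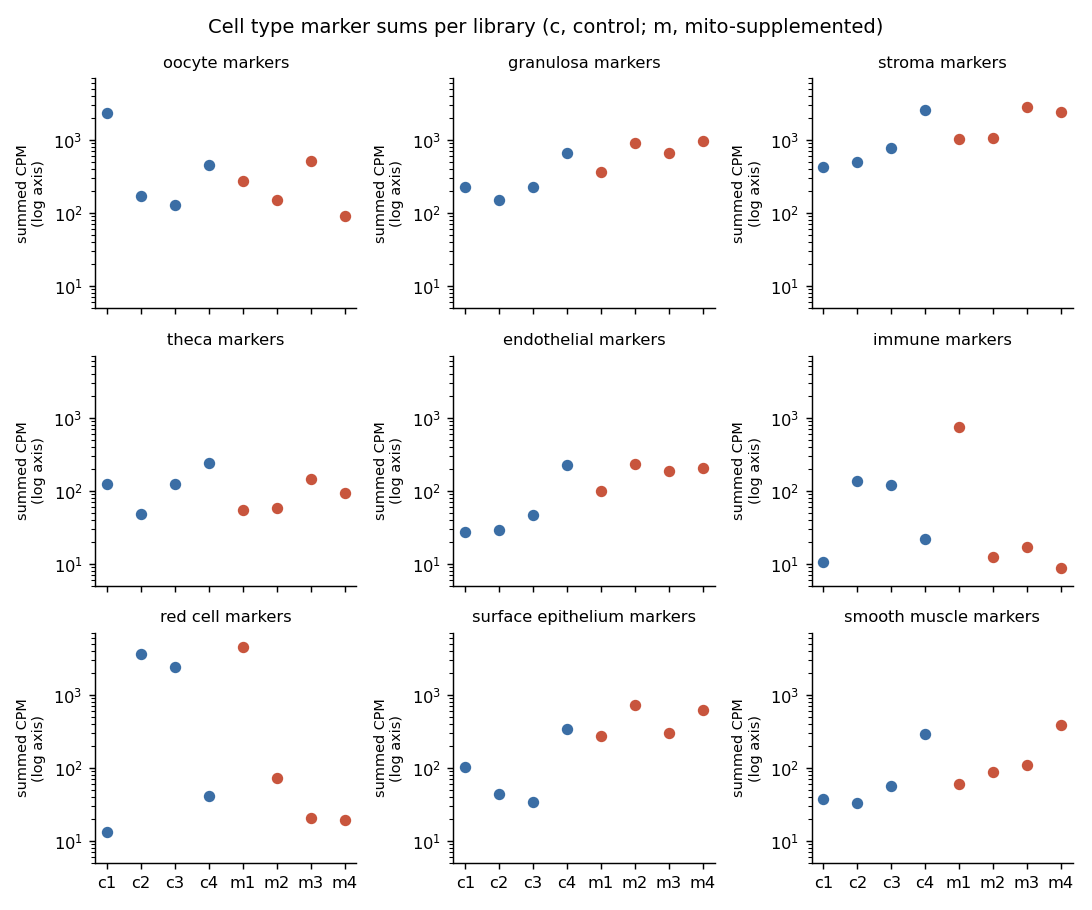
Summed CPM (vertical log axis, the same in each panel) of 9 cell type marker lists in each library, with controls in blue and mito libraries in red. Control replicate 4 (c4) lies among the mito libraries for granulosa, stroma, endothelial and surface epithelium markers, and c2, c3 and m1 hold the high red cell sums.

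The member values were also computed without single libraries. Without control replicate 4, the library rich in Rnr1 and Rnr2, the log2 fold changes were 2.61 for Egr1, 2.53 for Nr4a1, 0.93 for Ier2, 1.12 for Nr4a3, 1.05 for Nr4a2, 0.27 for Srf and -1.17 for Egr2. Without control replicate 1, the library high in Egr2, Srf and oocyte markers, they were 2.65, 2.73, 0.89, 1.16, 0.41, 0.34 and 0.44 in the same order. Without either of these controls, Egr1, Nr4a1 and Ier2 stayed within 0.17 of their values over all libraries, while Egr2 changed sign without control replicate 1. Without mito replicate 4 and mito replicate 1, respectively, Egr1 was at 2.16 and 2.88, Nr4a1 at 1.88 and 2.91, and Ier2 at 0.69 and 1.09. Leaving out mito replicate 4 moved Egr1, Nr4a1, Nr4a2, Nr4a3 and Ier2 more than leaving out any other library did. The label codes share a first part among mito replicates 1 to 3, control replicates 1 and 2, and control replicates 3 and 4. Mito replicate 4 has a first part that no other library shares. No source used here states what that part means, and each occurs in a single group, so that no comparison between groups can be made within it. The SDs, standard errors and tests treat the 4 samples of a group as independent, which the labels do not settle.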

How the data were processed

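RNA sequencing was analysed in 4 control and 4 mito-supplemented samples of primordial follicles, grouped by the titles in their labels, which the colour key of the study's heat map appears to contradict. Per the study's methods and the submitters' processing notes, the authors trimmed the reads with Trim Galore 0.4.4, aligned them to the mouse genome (GRCm38) with STAR 2.5.3a and assigned them to genes with featureCounts, and they used edgeR 3.20.9 for their own tests. The deposited values are whole counts per gene, not normalized, and 10370045 to 19760763 counts per library set the precision. No column of sample values was left unused. A control library that the authors set aside was not analysed here.

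The counts were fitted over the whole table with edgeR 4.0.16 in R 4.3.3, after filterByExpr with default settings and TMM normalization, by the quasi-likelihood test and by the likelihood ratio test. P-values were adjusted by the Benjamini-Hochberg method, and genes were called at an adjusted p under 0.05 and a 2-fold difference. Log2 CPM used a prior count of 2. RPKM used the union of exons in GENCODE M21. Totals and marker sums, as log2 of the sum plus 1, were compared by exact permutation tests with scipy 1.17.1 under python 3.11.15. Intervals and the floor of 3 counts cover counting error only. The steps across genes were run on simulated counts whose spread was set beforehand. That run does not show what the tests can detect at the spread of these libraries.

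The members and lists were chosen with earlier results of these data known. The 8 lists held EGR cofactors, SRF cofactors, NR4A partners, upstream kinases and CREB factors, EGR targets, NR4A targets, MRTF and SRF targets, and other immediate-early genes, and 9 further lists held cell type markers. Named were all members, all cofactors and partners, up to 4 genes with the largest absolute log2 fold change of each other list, the 5 genes nearest to the mean of the members by either centring, the most abundant gene of each marker list and markers at 0. Genes whose groups did not overlap, and Lhb, Stat6, Uxt and Zfp36, were named after their values were seen.

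Promoter windows from RefSeq were searched on both strands for the motifs named beside the member windows. Letters are given there for each motif but the CArG box, whose matches stand in capitals. Alternatives were library size only, DESeq2's size factors, other count filters, a replicate block, each library left out in turn, DESeq2 1.42.0, a prior count of 0.5 and depth without 4 rRNA genes.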

Additional observations from a re-analysis of the deposited data

Results flagged for a closer look

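Of 106 groups of 4 libraries examined, 5 held a library far from the other 3, and chance gives about 1 in 20, or 5.3. Nab1 stood at a log2 CPM of 6.24 in control replicate 4, while the other controls lay between 5.03 and 5.09. Mkl1 stood at a log2 CPM of 6.31 in control replicate 1, while the other controls lay between 3.91 and 4.25. Rxrb stood at a log2 CPM of 0.38 in mito replicate 4, while the other mito libraries lay between 2.59 and 3.00. Arc stood at a log2 CPM of 0.92 in control replicate 3, while the other controls had 0 counts. The immune markers stood at a log2 summed CPM of 9.54 in mito replicate 1, while the other mito libraries lay between 3.26 and 4.17.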

How the results depend on the processing

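The quasi-likelihood test called 0 genes under each edgeR alternative for which calls were counted, and DESeq2 called 141. Depth without the rRNA genes was tried for log2 fold changes and total counts only. The likelihood ratio test called 58 genes, 210 with scaling by library size only, and from 13 (without mito replicate 2) to 387 (without mito replicate 1) with a library left out. Of the 387 genes, 229 were higher in mito samples, and the cause was not tested. The difference in total counts was 589798, and with a library left out it lay between -967302 (control replicate 4 left out) and 1649137 (control replicate 3 left out). For Th, the log2 fold change lay between -1.88 (control replicate 3 left out) and 0.59 (control replicate 1 left out); the cause was not tested. The tolerance for log2 fold changes was 1 SD of log2 CPM between the libraries of a group, which is wide here. All 105 values of the members lay within it, although Egr2 and Srf changed sign under some alternatives, and so did 535 of 540 values of 36 named genes. The alternatives of the list medians, the counts without overlap and the nearest genes were chosen after seeing the data. With a library left out, 2 to 5 of the nearest 5 genes remained when centred over the 8 libraries, and 1 to 3 when centred within each group.

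With the replicate number as a block, the likelihood ratio test called 74 genes and the quasi-likelihood test 0. Deviations from the group means of samples with the same number had correlations of -0.24, -0.19, -0.33 and 0.22 over genes for replicates 1 to 4, so that the numbers did not pair the samples.

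The 4 libraries of a group and their unequal content limit what could be seen. Control replicate 4 had 2559876 counts outside the rRNA genes, so that Egr2, with 4 counts, and Nr4a3, with 8 counts (95% Poisson interval 3.45 to 15.8), were measured there with little precision. Egr3 and Egr4 were at or near the limit of detection in most libraries.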
